A study of Caenorhabditis elegans with 4 samples.

Results

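The nspa, nspb, nspc and nspe genes are 4 lettered groups of nematode-specific peptide genes of Caenorhabditis elegans, and were chosen by name. All genes of the files whose public name starts with nspa-, nspb-, nspc- or nspe- were taken, which gave 45 of 20535 genes: 8 nspa, 12 nspb, 18 nspc and 7 nspe genes. The families were put forward with the result of the strain comparison already known, so the differences between strains below are a description and carry no test of the members. Whole young adult animals of 2 strains were profiled by RNA-seq, with 2 libraries for each strain, each from a minimum of 200 animals. The control strain VL749 carries the integrated array wwIs24, written in the labels as acdh-1p::GFP + unc-119(ed3), a green fluorescent reporter of the acdh-1 promoter. The strain VL1080 carries the same array and the allele ww4 of mccc-1 on chromosome IV, and is called the mutant here. Animals of both strains were arrested at the first larval stage for 20 h, fed the bacterium Comamonas aquatica DA1877 on nematode growth medium, and collected 70 h after hatching at 20 °C.

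Nematode-specific peptide genes encode short proteins that are grouped by sequence and named for being found in nematodes. The roles of most of them are not known, and the letter of a group says nothing of its function. They tend to occur as tandem or inverted copies, and short copied genes are hard to measure by RNA-seq because one read can match several of them. The nspd group, not described for its own sake here, is known from sperm, and the major sperm proteins (msp genes) are the main cytoskeletal proteins of nematode sperm.

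The values are FPKM, fragments counted for a gene relative to the length of its transcript and to all those mapped in its library. They summed to between 741399 and 786436 per library, and 16925 to 17185 genes were above 0. mccc-1 itself had 104.19 and 105.26 FPKM in the controls, against 100.43 and 100.33 FPKM in the mutants. What ww4 changes in the gene is not given in the labels, so this level checks nothing. The lists of markers of intestine, body wall muscle, neurons, pharynx, hypodermis and germ line each held genes above 0 in every library, in a whole-animal sample. Only 5 of 8 hypodermis and 3 of 4 pharynx markers reached at least 1 FPKM in at least 2 libraries. Of all 13091 genes that reached this level, 23.2% were lower in both mutant libraries than in both control libraries, and 28.9% were higher. The marker counts below stand beside these shares. Of the 4 body wall muscle markers, 2 were lower in both mutant libraries and 0 higher. The counts were 1 and 0 of 4 for pharynx, 1 and 1 of 6 for intestine, and 0 and 0 of 5 for neurons. Of the 12 sperm markers, all 12 were lower in both mutant libraries than in both control libraries, with sums of 2231 and 2171 FPKM in the control and 528 and 810 FPKM in the mutant; spe-38 was at 0 in 1 library. Of the 10 oocyte and germline markers, 7 were higher in both mutant libraries, with sums of 2140 and 1912 against 2611 and 2467 FPKM, and none was at 0. The 8 hypodermis and cuticle markers had sums of 3595 and 2923 against 2909 and 3232 FPKM, with 3 of 8 lower in both mutant libraries and rol-6 at 0 in 2 libraries. In whole animals fewer cells of a type and less RNA per cell cannot be told apart.

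The 4 families differed in level and in direction. The nspa genes together were 3.06-fold lower in the mutant, the few nspe genes detected were together 1.82-fold higher at a low level, the nspc genes as a sum stood close between the strains, and the nspb genes were near the limit of detection in every library. The nspa sum was 297 and 416 FPKM in control replicates 1 and 2 and 117 and 116 FPKM in mutant replicates 1 and 2. Both control libraries lay above both mutant libraries, and the control libraries differed from each other more than the mutant libraries did. The nspc sum was 571 and 797 FPKM in the control and 577 and 736 FPKM in the mutant. Here the strains overlapped, and replicate 2 was the higher library in both. The nspe sum was 9.17 and 8.79 FPKM in the control and 15.03 and 17.6 FPKM in the mutant, without overlap.

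**Figure D1:**
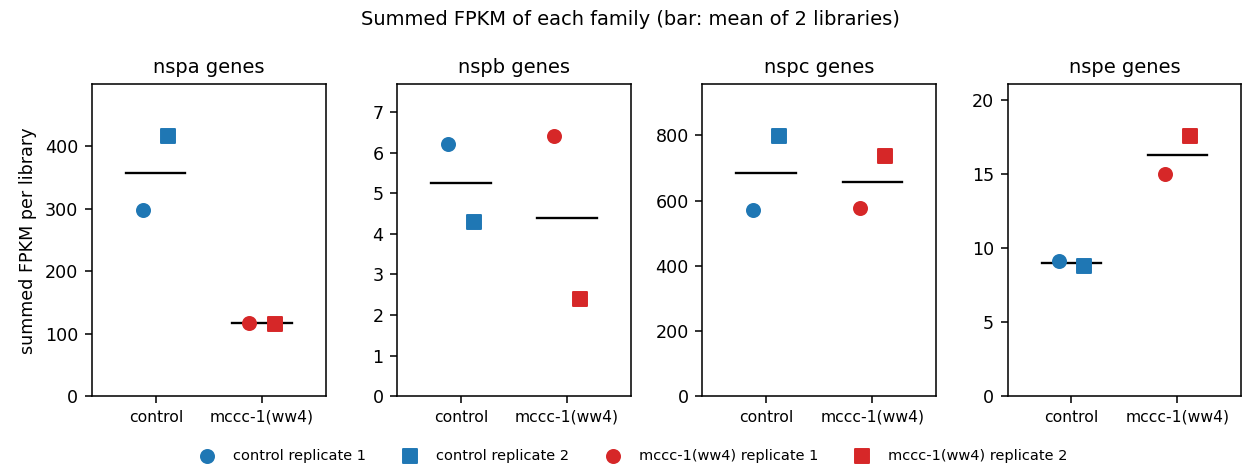
Summed FPKM of the nspa, nspb, nspc and nspe genes in each library, with 1 panel per family, a vertical axis from 0 in each panel, points for libraries and a bar for the mean of 2. The mutant libraries lie below both controls for nspa (117 and 116 FPKM) and above both for nspe (15.03 and 17.6 FPKM), and the strains overlap for nspb and nspc.

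Of the 45 genes, 30 reached at least 1 FPKM in at least 2 libraries and entered the fit across genes: 7 nspa, 2 nspb, 18 nspc and 3 nspe genes. Of the 15 others, 5 were listed at 0 in every library and none exceeded 3.05 FPKM. By limma on log2(FPKM + 1) with an adjusted p under 0.05, 2 of the 30 were called lower, nspa-8 and the nspa-5 copy H12D21.13, beside 7.30% of all tested genes, and 1, nspc-5, was called higher, beside 1.06% of all tested genes. The same contrast put the families forward, so nothing is read from these counts. Where genes with any value above 0, or all those reaching 0.1 FPKM, were tested, none of the members was called in either direction. Of all genes, 0.021% of 18934 and 0.024% of 16857 were called under these filters. For 12 of the 30 both mutant libraries lay on the same side of both controls, with 6 higher in the mutant beside 28.9% of all tested genes and 6 lower beside 23.2%. Of these 30 genes, 5 passed the minimum of 1 FPKM through 1 strain only: both nspa-7 copies through the control, and both nspa-1 copies and nspc-5 through the mutant. Such genes had to differ, so the counts above do not describe all members. The median log2 fold change of the 30 was -0.06 on the log2(FPKM + 1) scale, against 0.05 over all 13091 tested genes.

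All 8 nspa genes are annotated as single exons of 105 nt that encode 34 amino acids (WBcel235, Ensembl release 115 annotation), the shortest proteins of the 4 families. Very short transcripts are the hardest to measure, since few fragments fit within them. nspa-8 (WBGene00012294, W06A7.5) lies on chromosome V from 14826948 to 14827052 on the reverse strand, inside an intron of W06A7.4, which runs on the opposite strand. The other 7 lie 51.3 kb away in an array of 12.8 kb, on chromosome V from 14878348 to 14891186.

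The array has a regular layout. The copies that share a name are the same distance apart: the starts of the nspa-5 copies ZC412.6 and H12D21.13, of the nspa-1 copies ZC412.7 and H12D21.1 and of the nspa-7 copies H12D21.15 and H12D21.14 are each 6368 bases apart, on the same strand. The start of nspa-2 comes 6366 bases after that of the second nspa-5 copy. The order of names and strands thus runs nspa-5 forward, nspa-1 reverse and nspa-7 reverse, then the same again, and ends with nspa-2 forward.

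nspa-8 had 172.74 and 204.09 FPKM in the controls, against 41.15 and 48.37 FPKM in the mutants, the highest mean of the family. The controls lay far above the mutants, with a narrow spread within each strain (188 ± 22.2 against 44.8 ± 5.11 FPKM, SD, n = 2 each). The mean was 4.21-fold lower in the mutant, and the log2 fold change on the log2(FPKM + 1) scale was -2.05 (SE 0.15). With each library left out in turn, its log2 fold change ranged from -2.17 to -1.93. W06A7.4, the gene whose intron holds it, had 321.44 and 383.53 FPKM in the controls, against 387.16 and 299.57 FPKM in the mutants, with the strains overlapping. No source used here says whether counting used strand, so reads of nspa-8 and of unspliced W06A7.4 RNA could not be told apart; that part in the level of nspa-8 was not tested.

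The first nspa-5 copy, ZC412.6 (WBGene00013887, 14878348 to 14878452, forward strand), had 82.1 and 164.78 FPKM in the controls, against 56.15 and 43.09 FPKM in the mutants. The strains did not overlap, but control replicate 2 was 2.01 times control replicate 1, and the controls lay further apart than the means of the strains. Its log2 fold change was -1.23 (SE 0.31), and it was not called with all 4 libraries fitted by group. With each library left out in turn, its log2 fold change ranged from -1.72 to -0.73. The second copy, H12D21.13 (WBGene00044272, 14884716 to 14884820, forward strand), had 39.52 and 42.15 FPKM in the controls, against 15.23 and 22.11 FPKM in the mutants. Its controls were close together and above both mutants, with a mean 2.19-fold lower in the mutant and a log2 fold change of -1.11 (SE 0.20). It was not called without control replicate 2 or without mutant replicate 1. As a pair the nspa-5 copies summed to 122 and 207 FPKM in the control and 71.4 and 65.2 FPKM in the mutant, 2.41-fold lower by the means. RSEM, which the submitters' processing notes name, estimates how reads that match both copies are divided, so each copy's own value is uncertain.

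The other copies of the array were close to 0. Both nspa-1 copies were listed at 0 and 0.98 FPKM in the controls, against 1.47 and 1.28 FPKM in the mutants. Both nspa-7 copies had 1.5 and 1.32 FPKM in the controls, against 0.72 and 0 FPKM in the mutants. The copies of each pair had the same value to the second decimal in all 4 libraries, so they carry 1 measurement each and not 2. nspa-2 was listed at 0 in every library. Among 28 other genes with 1 transcript of 90 to 120 nt, the lowest values above 0 ranged from 0.14 to 0.86 FPKM between libraries. nspa-8 and both nspa-5 copies together made up 96.3% to 99.0% of the nspa sum in each library. The difference between strains in that sum is therefore that of 3 genes.

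**Figure D2:**
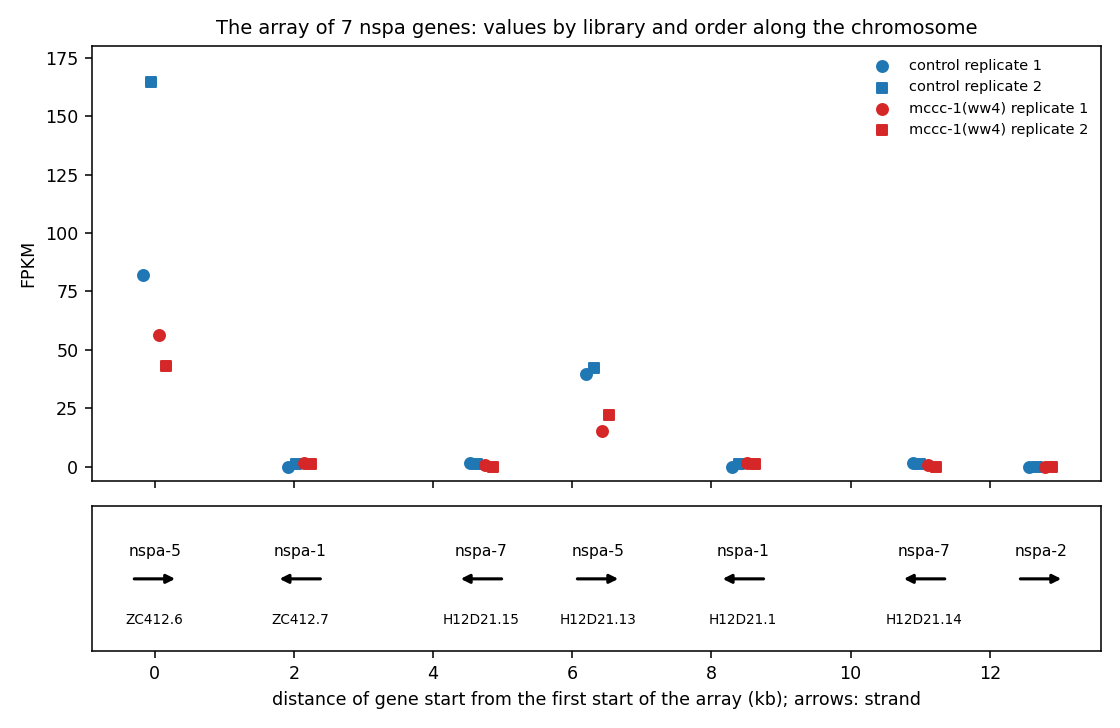
FPKM of the 7 nspa genes of the array in each library (upper panel, points set side by side at each gene) against the distance of the gene start from the first start of the array in kb, with names, sequence names and strands (arrows) in the lower panel. The nspa-5 copies hold nearly all the signal, at 39.52 to 164.78 FPKM in the control and 15.23 to 56.15 FPKM in the mutant, while the other 5 genes are at most at 1.5 FPKM.

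Genes around the nspa genes did not all take the same course. Within 20 kb of the array the files hold 16 other genes, of which 10 were tested. Of the 10, 1 was called lower, beside 7.30% of all tested genes, and 0 higher, beside 1.06%. By order, 5 of the 10 were lower in both mutant libraries than in both controls, beside 23.2% of all tested genes. Of these 5, the genes ZC412.8 and H12D21.3 had equal values in every library and count as 1 measurement. The called gene, ZC412.5, had 3.6 and 5.37 FPKM in the controls, against 1.07 and 1.58 FPKM in the mutants. It lies beside the array and was named after its values were seen. Within 20 kb of nspa-8 there were 4 other genes, all tested, of which none was called. ret-1 was the only one whose strains did not overlap, with a log2 fold change of -0.14. The same shares of all tested genes stand beside these counts.

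The nspa sum stood lower in the mutant by nearly the same factor as the sums of the sperm families, and the ratios between replicates are given beside it. The 10 nspd genes summed to 2431 and 2517 FPKM in the control and 678 and 1114 FPKM in the mutant, 2.76-fold lower. The 30 msp genes summed to 11034 and 10562 FPKM in the control and 2819 and 4312 FPKM in the mutant, 3.03-fold lower. Mutant replicate 2 was above mutant replicate 1 by 1.64 times in nspd and 1.53 times in msp, and these libraries were level in the nspa sum, at 0.993 times. Control replicate 2 was 1.40 times control replicate 1 in nspa, against 1.04 times in nspd and 0.957 times in msp. Single nspa genes differed in this from their sum. nspa-8 had a ratio of replicate 2 to replicate 1 of 1.18 in both strains. For the nspa-5 copy ZC412.6 the ratio was 2.01 in the control and 0.767 in the mutant. For the copy H12D21.13 it was 1.07 in the control and 1.45 in the mutant. With 2 libraries a strain these orders were not tested, and the part of sperm RNA in the nspa difference was not tested.

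**Figure D3:**
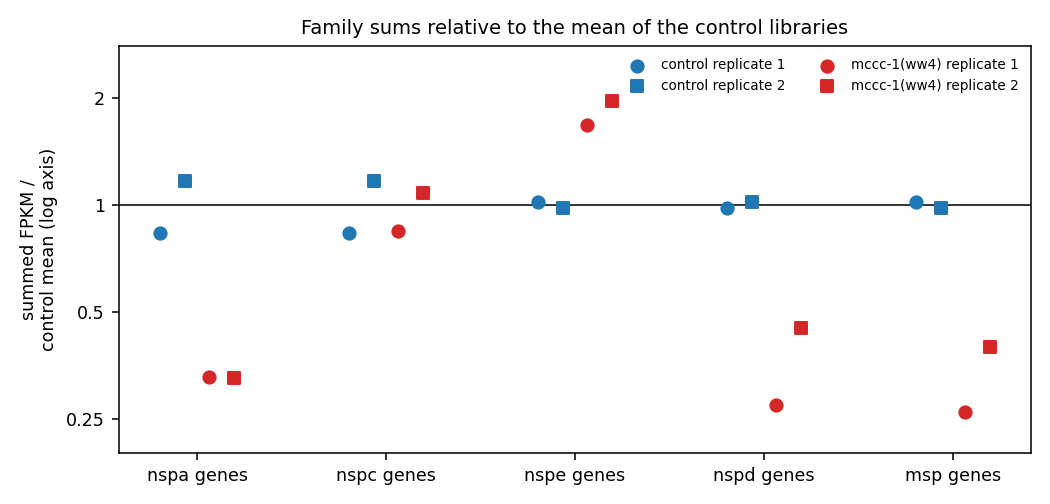
Summed FPKM of the nspa, nspc, nspe, nspd and msp genes in each library, divided by the mean of the control libraries of the same family, on a log axis; the line marks the control mean. In nspd and msp mutant replicate 2 lies above mutant replicate 1 (1.64 and 1.53 times). The mutant libraries coincide in the nspa sum (0.993 times), though not in its single genes.

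All 18 nspc genes are annotated on the X chromosome, each with 2 exons, and encode 101 to 103 amino acids. They form 3 clusters. The first holds 7 genes from 8534672 to 8542283, the second 6 genes from 12342946 to 12361159 and the third 5 genes from 14523575 to 14530207. Neighbours in a cluster mostly lie on opposite strands: of 15 pairs of adjacent nspc genes, 7 are divergent, 6 convergent and 2 on the same strand. In the first cluster the 3 divergent pairs are separated by gaps of 362, 363 and 365 bases.

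nspc genes were the most abundant of the 4 families as a sum, and most differed little between strains. Of the 18, 12 differed by under 1.5-fold on the log2(FPKM + 1) scale, 4 were higher by more and 2 lower by more. The median log2 fold change was -0.14. nspc-7 (C03G5.2) had the highest mean, at 113.33 and 96.75 FPKM in the control and 89.97 and 134.3 FPKM in the mutant, with a log2 fold change of 0.07 (SE 0.20). nspc-15 (F42F12.8) had 74.96 and 124.64 FPKM in the controls, against 79.92 and 90.99 FPKM in the mutants, with a log2 fold change of -0.18 (SE 0.24); its exons overlap those of F19H6.6 on the same strand, which was at 0.14 to 0.28 FPKM. nspc-4 (C03G5.11) had 60.72 and 81.87 FPKM in the controls, against 73.1 and 76.27 FPKM in the mutants, with a log2 fold change of 0.08 (SE 0.17). In all 3 the strains overlapped, and the mean of nspc-7 was above that of 91.7% of tested genes.

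A few nspc genes switched between near 0 and over 10 FPKM. nspc-5 (WBGene00044340, C03G5.12, 8538726 to 8539097, forward strand) was listed at 0 in each of the controls, while the mutants had 29.46 and 21.2 FPKM. It is the only member at 0 in both libraries of one strain and at 5 FPKM or more in both of the other. No ratio of means is given against a group listed at 0, where a log2 fold change depends on the constant added to FPKM. Without either mutant library nspc-5 missed the filter and was not tested. nspc-1 (C03G5.8), in the same cluster, had 0.67 and 38.36 FPKM in the controls, against 14.65 and 19.5 FPKM in the mutants. The control libraries differed more than the strains did, and the mutant lay between them. nspc-16 (D1025.6), named after its values were seen, was listed at 0 and 46.7 FPKM in the controls, against 7.13 and 16.6 FPKM in the mutants, again between the controls. The log2 fold changes of nspc-1 and nspc-16 were 1.14 (SE 1.27) and 0.79 (SE 1.57), while their mean FPKM were 1.14-fold and 1.97-fold lower in the mutant, so the sign depended on the scale. Both were called lower without control replicate 1 and higher without control replicate 2.

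Sums over a cluster varied less than these single genes. The first cluster, with nspc-1 and nspc-5, summed to 263 and 317 FPKM in the control and 262 and 352 FPKM in the mutant, a ratio of mutant to control of 1.06. The second summed to 214 and 307 FPKM in the control and 210 and 261 FPKM in the mutant, a ratio of 0.903. The third, with nspc-16, summed to 94.04 and 173 FPKM in the control and 105 and 124 FPKM in the mutant, a ratio of 0.857. In each cluster the strains overlapped. Reads can be divided among similar copies in more than one way, so a sum is less affected by that division than a single gene; how far it set the values of nspc-5, nspc-1 and nspc-16 was not tested.

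Some copies had equal values. The nspc-2 copies C03G5.9 and C03G5.13, on opposite strands of the first cluster, were both listed at 42.18, 47.3, 25.64 and 48.74 FPKM in control replicates 1 and 2 and mutant replicates 1 and 2. With the nspa-1 and nspa-7 pairs, 6 of the 30 tested members shared all 4 values with another gene to the second decimal, against 0.512% of all tested genes. The nspc-2 pair thus counts as 1 measurement.

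**Figure D4:**
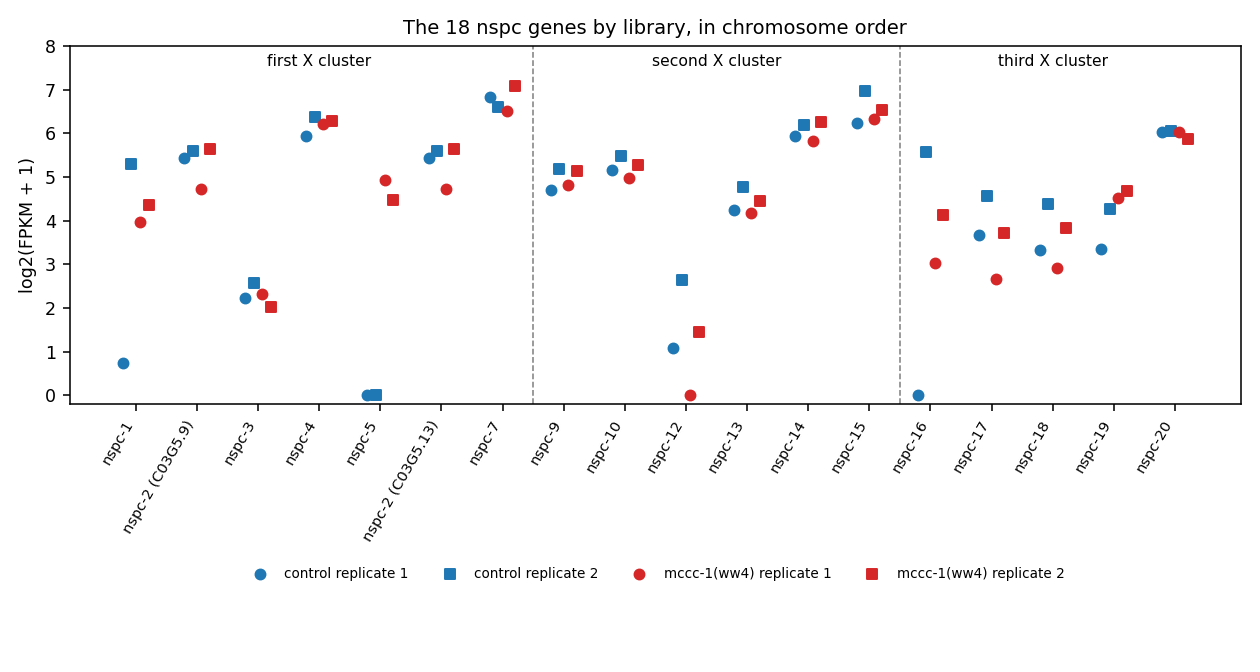
Levels of the 18 nspc genes in each library as log2(FPKM + 1), in chromosome order, with dashed lines between the 3 clusters. Most genes have 4 points close together, while nspc-5 is at 0 in both controls and nspc-1 and nspc-16 have their lowest and highest point in the 2 control libraries.

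The nspc genes also separated the replicates. On the log2(FPKM + 1) scale, in the control 16 of the 18 were higher in replicate 2 than in replicate 1, where 60.05% of all tested genes were, and in the mutant 15 of 18 were, where 41.8% of all tested genes were. The median difference of replicate 2 minus replicate 1 was 0.45 in the control and 0.36 in the mutant, against 0.07 and -0.06 over all tested genes. These genes are not independent points, because similar copies share reads. As a sum, nspc was 1.39 times higher in control replicate 2 and 1.28 times higher in mutant replicate 2. Both factors are larger than the difference between strains, a ratio of 0.961. The remaining nspc genes that did not overlap between strains were nspc-19, at 9.14 and 18.33 FPKM in the control and 21.89 and 24.46 FPKM in the mutant, and nspc-20, at 64.11 and 65.39 against 63.88 and 57.36 FPKM. Both were named after their values were seen, and neither was called in the fit by group. Of the nspc genes not yet named, nspc-3 and nspc-12 were the lowest, both named after their values were seen, and nspc-12 had 1.12 and 5.19 FPKM in the controls, against 0 and 1.75 FPKM in the mutants. nspc-9, nspc-10, nspc-13 and nspc-14 of the second cluster had log2 fold changes of 0.03, -0.20, -0.20 and -0.03, and nspc-17 and nspc-18 of the third had -0.92 and -0.48.

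The 7 nspe genes lie in 1 cluster of 16.9 kb on chromosome II, from 12612518 to 12629384, and encode 71 to 75 amino acids. nspe-1 (WBGene00012591, Y38E10A.13, 12620649 to 12620864, reverse strand), a single exon of 216 nt, held 49.6% to 68.3% of the family sum. It had 4.55 and 5.68 FPKM in the controls, against 10.26 and 10.66 FPKM in the mutants. The replicates were close in each strain and the strains did not overlap, with 2.05 times more in the mutant by the means and a log2 fold change of 0.91 (SE 0.22). nspe-1 was not called, but was called higher after quantile normalization.

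nspe-2 (Y38E10A.26), the neighbour of nspe-1 on the same strand and with the same length, had 1.35 and 0.91 FPKM in the controls, against 1.86 and 3.21 FPKM in the mutants. nspe-4 (Y38E10A.11) had 2.1 and 0.96 FPKM in the controls, against 2.17 and 1.94 FPKM in the mutants, with the strains overlapping. The other 4 nspe genes were at most at 0.92 FPKM, and nspe-8 was listed at 0 throughout. Without nspe-1 the sum was 4.62 and 3.11 FPKM in the control and 4.77 and 6.91 FPKM in the mutant, a ratio of 1.51. For other genes with 1 transcript of 200 to 230 nt the lowest values above 0 ranged from 0.14 to 0.41 FPKM between libraries.

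The 12 nspb genes encode 79 to 86 amino acids from 2 exons and are spread over chromosomes II, III and IV, with groups of 5 on IV and 4 on II. They were the least expressed family, with 3 genes at 0 in every library and 2 past the filter. Their sum was 6.21 and 4.3 FPKM in the control and 6.4 and 2.4 FPKM in the mutant, with the strains overlapping. nspb-10 had 1.81 and 0.36 FPKM in the controls, against 1.5 and 1.11 FPKM in the mutants, and nspb-4 had 1.04 and 0 FPKM against 2.7 and 0.13 FPKM. nspb-1 had 0.57 and 3.05 FPKM in the controls and was listed at 0 in both mutants, but did not pass the filter. nspb-1 and nspb-2 both overlap the span of irld-7 without overlap of exons, nspb-1 on the opposite strand and nspb-2 on the same strand. irld-7 had 1.24 and 3.05 FPKM in the controls and 0.4 FPKM in each of the mutants. nspb-2 had 0.25 and 0 FPKM in the controls, against 1.62 and 0.13 FPKM in the mutants. The 2 tested nspb genes, nspb-4 and nspb-10, were not called, and the other 10 were too low to be tested.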

How the data were processed

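Each library was deposited by the authors as 1 file of FPKM per gene, per the file headers, with 2 decimals. Bowtie2 and RSEM are named, per the submitters' processing notes; their versions, the build, the annotation and whether strand was used were not given in the sources used here. RSEM divides reads among similar transcripts by a model and scales by an effective length, so values of near-identical and very short genes are uncertain. Depth per library is unknown. Names came from a table of WormBase gene IDs, in which 48 genes bear these family names and 45 of them are in the files. Positions are from the WBcel235 annotation, Ensembl release 115.

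Values were fitted as log2(FPKM + 1), group only, with limma 3.58.1 in R 4.3.3 and a mean-variance trend. Benjamini-Hochberg adjustment was over the 13091 genes that reached 1 FPKM in 2 or more libraries, with a threshold of 0.05. The fit was run on simulated data with independent noise, in which only genes above a set level were changed. That check does not cover low genes or copies that share reads. A fold change on the log2(FPKM + 1) scale understates that of low genes. Other folds are ratios of mean FPKM. The labels call the libraries biological replicates without saying how cultures were separated, so the spread may be partly technical. Members, lists, filter and named genes were chosen with earlier results of these data known. Full values were given, per family, for the 3 genes of highest mean, the 2 of largest change with a mean of at least 1 FPKM, and any gene at 0 in one strain and at 5 FPKM or more in the other. A planned comparison of protein and promoter sequence was not run. Alternatives were other pseudocounts, filters and scalings, leaving out each library, and the replicate number as a block.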

Additional observations from a re-analysis of the deposited data

How the results depend on the processing

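The count of members called (1 higher and 2 lower by limma) depended on the filter: it was 0 and 0 with no filter beyond a value above 0 and with a minimum of 0.1 FPKM, where 4 of all genes were called. After quantile normalization 2 were called higher, beside 123 of all 13091 tested genes, and 2 lower, beside 603. Leaving out 1 library left a single library in 1 strain. The log2 fold change then ranged from -2.17 to -1.93 for nspa-8 and from -1.37 to -0.86 for the nspa-5 copy H12D21.13. For nspc-5 it was 4.70 without either control replicate. Both controls of nspc-5 were listed at 0, so leaving out either could not change this value. Without either mutant replicate nspc-5 did not pass the filter. The labels do not say that a replicate number marks a batch. Deviations of same-numbered libraries correlated at 0.18 across all tested genes. Across the 30 tested members, which share reads and are not independent, the correlation was 0.45. With the replicate block 3 members were called higher (nspc-5, nspc-19 and nspe-1), beside 352 of all 13091 tested genes. A further 5 were called lower (nspa-8, both nspa-5 copies, nspc-12 and nspc-17), beside 1451 of all tested genes.

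The ratio of summed FPKM, mutant over control, kept its direction for nspa and nspe under every alternative tried. It was 0.280 to 0.392 for nspa and 1.67 to 1.96 for nspe with 1 library left out. Without the highest member it was 0.427 for nspa and 1.51 for nspe. For nspc it ranged from 0.825 to 1.15 with 1 library left out, on both sides of 1. For nspb it ranged from 0.457 to 1.22, and was 1.69 over the 2 genes past the filter. With the replicate block, the geometric mean of ratios within numbers, the ratios were 0.331 for nspa, 0.758 for nspb, 0.967 for nspc and 1.81 for nspe. Of 135 alternative log2 fold changes of 13 named genes, 8 changed sign, none of a called gene, and 3 moved by more than the replicate spread. Among these 3 was that of nspc-5, which was 7.97 with a pseudocount of 0.1. The controls of nspc-5 were listed at 0, so its log2 fold change depends on the pseudocount. Low levels limit nspb, nspa-1, nspa-7 and most nspe genes.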

Other observations

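The other lettered groups of nematode-specific peptide genes in the files fell into contrasting patterns. Of the 9 tested nspd genes, all 9 were called lower by limma (median log2 fold change -1.40), beside 7.30% of all tested genes. The 8 nsph genes summed to 652 and 686 FPKM in the control and 186 and 288 FPKM in the mutant, 2.82-fold lower, and 4 of 7 tested genes were called lower. The 14 nspg genes summed to 1061 and 881 FPKM in the control and 1044 and 869 FPKM in the mutant, a ratio of 0.985. Of the 10 tested nspg genes 0 were called by limma, beside 7.30% of all tested genes called lower and 1.06% higher. At an unadjusted limma p under 0.05 there were 0 of the 10, beside 2833 of all 13091 tested genes. In nsph mutant replicate 2 was 1.55 times mutant replicate 1, as in nspd (1.64 times), and in nspg replicate 2 was the lower library in both strains.

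The genes H12D21.3 and ZC412.8, which share a public name and lie in the nspa array, were both listed at 3.37, 4.16, 2.52 and 2.29 FPKM. Another pair with a shared name there, ZC412.9 and H12D21.2, did not have equal values: ZC412.9 had 0.69 and 1.22 FPKM in the controls, against 0.54 and 0.18 FPKM in the mutants, and H12D21.2 had 1.33 and 3.87 FPKM, against 1.03 and 1.11 FPKM.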
